A study of Mus musculus with 4 samples.

Results

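Cytokines are the secreted proteins by which macrophages start, steer and restrain inflammation. The 10 genes described here comprised the pro-inflammatory cytokine genes Tnf, Il6 and Osm, the genes of the IL-12 family subunits Il12a, Il12b, Il23a, Il27 and Ebi3, and 2 genes whose products restrain inflammation, Il10 and Il1rn. They were chosen by symbol for what they encode, with earlier results of these data known, and each symbol matched 1 row of a table of 54532 genes. Bulk RNA-seq had been performed on alveolar macrophages (AMs), the macrophages that live in the lung airspace, of female mice with no engineered allele (wild type). Mice that received no tumor cells gave the 2 control libraries. The tumor group held 2 libraries from mice that carried a primary 4T1 tumor for 2 weeks, 4T1 being a mouse mammary carcinoma line that grows in the mammary fat pad and spreads to the lung. Per the methods of the study, its wild-type mice were young adults on a BALB/c background. For staining, the study isolated AMs as CD45+ CD11b- CD11c+ SiglecF+ lung cells, a gate that would leave out CD11b+ neutrophils and SiglecF- dendritic cells. Its account of the results names staining and RNA-seq together as uses of the isolated AMs, while its sequencing methods say only that AMs were purified and name no gate. The number of mice behind each library is not given in the sources used here, so that the p-values below measure the spread between these libraries, which may be technical.

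TNF acts through 2 receptors to turn on NF-kB, the transcription factor that also drives the genes of IL-6 and of the IL-12 family. The IL-12 family is built from shared parts. The p40 chain encoded by Il12b pairs with p35 (Il12a) to form IL-12, which favors type 1 T cell responses, or with p19 (Il23a) to form IL-23, which sustains type 17 responses. EBI3 pairs with p28 (Il27) to form IL-27 or with p35 to form IL-35, a cytokine tied to regulatory T cells. IL-10 shuts down macrophage cytokine production through STAT3, and the IL-1 receptor antagonist encoded by Il1rn occupies the IL-1 receptor without signaling.

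Total counts ranged from 16167147 to 19205737 per library. Levels are given in CPM, counts scaled to TMM library sizes, and the floor, 3 counts, lay between 0.153 and 0.190 CPM, which covers counting error only. The AM label was checked against 14 AM markers, none of which was at the floor in the control group, with Chil3 at 5168 ± 102 CPM in controls and 3780 ± 163 CPM in tumor libraries (SD, n = 2 each). Their summed level was 16427 and 16572 CPM in the control libraries and 12565 and 12707 CPM in the tumor libraries. Markers of other cells moved with the groups as well. The 10 neutrophil markers summed to 9.87 and 10.01 CPM in controls and to 3794 and 3752 CPM in tumor libraries, and the 5 eosinophil markers to 0.480 and 0.507 CPM against 2224 and 2204 CPM. The 10 hepatocyte markers summed to 146.5 and 148.1 CPM against 972.3 and 960.7 CPM. Of these markers 8 were at the floor in controls, so the control sums came almost wholly from the rest. Trf, not at the floor in controls, was lower in the tumor libraries by 0.15 on the log2 scale under TMM. Alb, the albumin gene, went from 0 counts in each control to 8036 and 9358 in tumor libraries. In bulk samples, fewer cells of a type and less RNA per cell cannot be told apart, and the part of these other cells in the changes below was not tested.

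Many cytokine mRNAs are short-lived because proteins such as tristetraprolin (Zfp36) bind AU-rich elements, runs of ATTTA in the 3′ UTR. The 3′ UTR was read from 1 GENCODE M21 transcript per gene, and 8 of the 10 genes held 5 or more copies of ATTTA. The median over 21004 3′ UTRs was 1 copy. For each of these 8 genes, 3′ UTRs within 20% of its length were also searched. Between 0.289% (for Il27) and 5.26% (for Osm) of them held at least as many copies. The stricter nonamer TTATTTATT was present in 4 genes, Tnf, Il12a, Il23a and Il27, and in 7.19% of all 3′ UTRs. Among 3′ UTRs within 20% of the length of that of Tnf, 4.17% held it. The densest 30-base stretch is shown for genes on which the results turn, 5′ to 3′ with each ATTTA in capitals, because genes that fell and genes that rose both held these elements.
Tnf (chr17:35199677-35199706, GRCm38, minus strand): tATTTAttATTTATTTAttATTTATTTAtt
Il12a (chr3:68698436-68698465, plus strand): ctATTTAtATTTATTTAttttctATTTAtt
Il12b (chr11:44413473-44413502, plus strand): ATTTAagtaATTTAtgtATTTAttaATTTA
Il23a (chr10:128296175-128296204, minus strand): ggttATTTAttctATTTAtaaggaattatg
Il6 (chr5:30019691-30019720, plus strand): ATTTAttgataATTTAaataagtaaacttt
The Tnf stretch held 5 copies and those of Il12a and Il12b 4 each. Il1rn held 0 copies in a 3′ UTR of 1864 bases and Ebi3 held 1 in 245 bases.

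All 10 genes passed the filter on low counts and were tested with edgeR's quasi-likelihood test, with Benjamini-Hochberg adjustment over 14256 genes. In the tumor libraries 5 were lower (Tnf, Il1rn, Il23a, Il6 and Osm), 3 were higher (Ebi3, Il12b and Il12a) and 2 did not pass the threshold of 0.05 (Il10 and Il27). Over all genes tested 53.8% were called, 29.0% higher and 24.8% lower, so the share of 8 in 10 is read against a background in which most genes were called. A called fall of at least 1 on the log2 scale was found for 3 of the 10 and for 3.01% of all genes, and a called rise of at least 1 for 3 of the 10 and for 12.9% of all genes. The CPM values of the 2 groups did not overlap for any of the 10 genes, which was also the case for 75.1% of all genes. Their median log2 difference, tumor minus control, was -0.38, beside 0.02 over all genes tested.

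**Figure D1:**
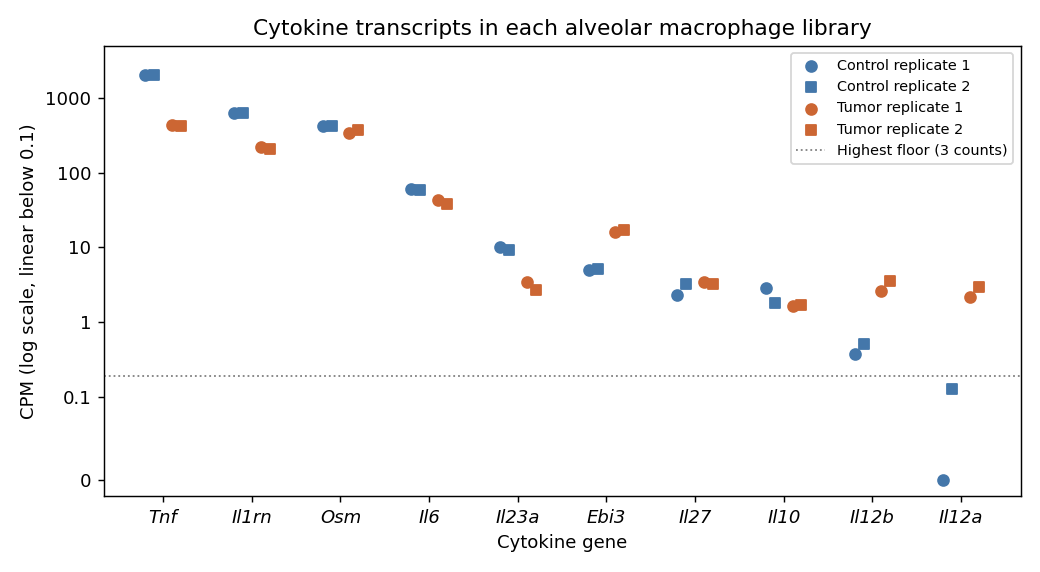
Level of each of the 10 cytokine genes in CPM (log scale, linear below 0.1) in the 2 control libraries (blue) and the 2 tumor libraries (orange), with the highest floor of 3 counts as a dotted line. Tnf fell from about 2034 to 430.4 CPM, Ebi3, Il12b and Il12a lay higher in both tumor libraries, and Il12a was under the floor in both control libraries.

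Directions depend in part on scaling. When library sizes were scaled so that the AM marker list was held level, the median log2 fold change of all genes moved from 0.02 to 0.46, and 91.6% of called genes were higher as against 53.9% under TMM. Under that scaling Tnf, Il1rn and Il23a were still called lower at -1.80, -1.14 and -1.23, Il6 at -0.12 was no longer called with an adjusted p of 0.107, Osm was called higher at 0.19, and Il27 was called higher at 0.73 with an adjusted p of 0.00982. Small differences below are thus relative to TMM scaling. Counts of genes called under scaling on the AM markers are to be read against this shift of all genes.

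**Figure D2:**
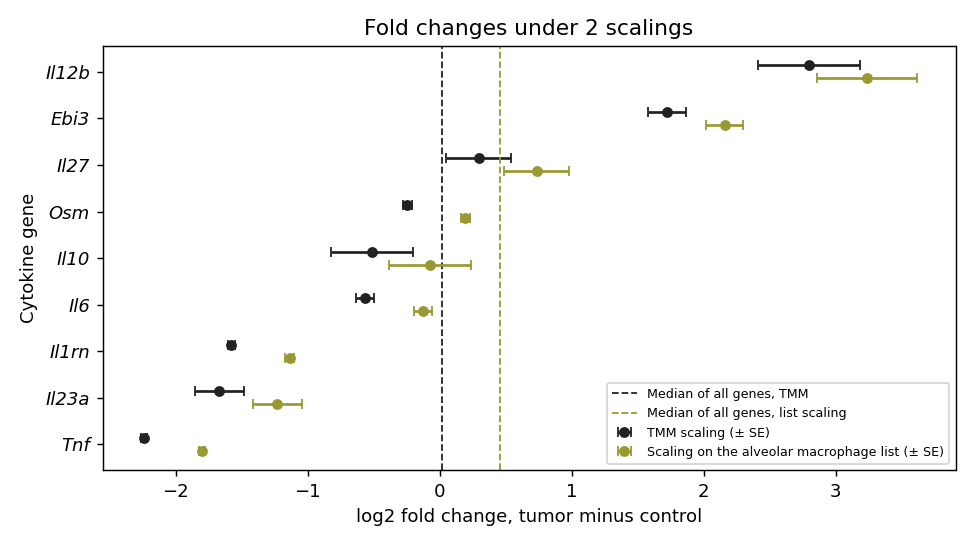
Log2 fold change, tumor minus control, of 9 cytokine genes with its SE under TMM scaling (black) and under scaling on the AM marker list (olive), with the median of all genes under each as a dashed line. Il12a is left out because its control libraries were at the floor. Tnf, Il23a and Il1rn lay well to the left and Ebi3 and Il12b well to the right of both medians, whereas Osm changed sign between the scalings.

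Tnf (ENSMUSG00000024401, chromosome 17, 35199381 to 35202007, minus strand, GRCm38) had the highest level of the 10 genes in both groups. Controls had 37825 and 32351 counts, tumor libraries 7485 and 8410. Both control libraries were far above both tumor libraries and replicates lay close together. The level fell from 2034 ± 22.6 to 430.4 ± 2.56 CPM (SD, n = 2 each), 4.73-fold lower, a log2 difference of -2.24 (SE 0.0205, edgeR adjusted p = 2.4e-33). Of the 14256 genes tested, 45 had a lower log2 fold change. Per length (FPKM, the CPM over the gene length in kilobases), Tnf ranked 21 among all genes in controls and 154 in tumor libraries. Beside it, 12 of the 14 AM markers were called lower, with a median log2 fold change of -0.46.

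Il6 (chromosome 5, 30013114 to 30019981), which encodes a cytokine of the acute phase response and of T cell differentiation, had 1136 and 934 counts in controls against 738 and 756 in tumor libraries. Its level was 59.9 ± 1.01 and 40.6 ± 2.89 CPM (SD, n = 2 each), a log2 difference of -0.56 (SE 0.0673, edgeR adjusted p = 4.3e-08). Osm (chromosome 11, 4236420 to 4241026) encodes oncostatin M, an IL-6 family cytokine that acts mainly on stromal, epithelial and liver cells. It had 7882 and 6726 counts in controls and 5887 and 7326 in tumor libraries, that is, 423.3 ± 4.01 and 356.7 ± 23.6 CPM (SD, n = 2 each). This was the smallest called change, -0.25 ± 0.0324 on the log2 scale (SE), with an edgeR adjusted p of 2.44e-07, and it turned to a rise under scaling on the AM markers. Within a library Osm made up 87.4% and 87.8% of the counts of Osm and Il6 together in controls and 88.9% and 90.6% in tumor libraries. In the 250 bases before its start site (chr5:30012864-30013113, GRCm38.p6, plus strand, from RefSeq), Il6 held 1 match to the NF-kB motif (GGG, any 2 bases, TTTCC) and 1 to the AP-1 motif TGANTCA. The stretch is printed because both motifs, in capitals, belong to factors that were measured.
Il6 upstream: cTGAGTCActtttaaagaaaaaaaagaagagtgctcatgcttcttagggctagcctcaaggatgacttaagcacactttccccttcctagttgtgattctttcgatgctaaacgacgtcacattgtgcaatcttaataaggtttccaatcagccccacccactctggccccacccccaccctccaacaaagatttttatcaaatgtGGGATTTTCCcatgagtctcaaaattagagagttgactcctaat
Both strands were searched, over 300 bases from 250 before to 50 after each start site. The NF-kB motif was found in 1.63% and the AP-1 motif in 7.81% of 32851 such windows. RefSeq windows were matched for 6 of the 10 genes.

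Of the 5 IL-12 family genes 3 rose, 1 fell and 1 was not called. Il12a (chromosome 3, 68690644 to 68698547), the p35 gene, had 0 and 2 counts in the control libraries, both under the floor, and 38 and 57 counts in the tumor libraries. Over the groups this was 2 against 95 counts, a ratio of 44.4 with a 95% counting interval from 12.0 to 372, and the edgeR adjusted p was 5.95e-08. The ratio rests on 2 control counts, both from control replicate 2, so its size is poorly known. Il12b (chromosome 11, 44400063 to 44414033), the p40 gene, had 7 and 8 counts in controls and 45 and 69 in tumor libraries. It rose from 0.440 ± 0.0944 to 3.06 ± 0.649 CPM (SD, n = 2 each), a log2 difference of 2.80 (SE 0.385, edgeR adjusted p = 5.14e-07). Il12b made up 54.2% and 54.8% of the counts of both genes in the tumor libraries, and both stayed among the 4 lowest of the 10 per length.

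Il23a (chromosome 10, 128296139 to 128298752), the p19 gene, went the other way. It had 191 and 144 counts in controls and 59 and 53 in tumor libraries, and fell from 9.66 ± 0.753 to 3.05 ± 0.499 CPM (SD, n = 2 each). The log2 difference was -1.67 (SE 0.186, edgeR adjusted p = 1.23e-08). The study itself displayed Il23a from this experiment, so its direction is not independent evidence. The p40 and p19 genes can also be set against each other within a library, without any scaling. Of the counts of Il12b and Il23a together, Il12b made up 3.54% (exact 95% interval 1.43 to 7.15) and 5.26% (2.30 to 10.1) in the control libraries. In the tumor libraries it made up 43.3% (33.6 to 53.3) and 56.6% (47.3 to 65.5). The control and tumor intervals did not overlap. With 2 libraries against 2, no permutation test can reach 0.05, and none was run on these shares.

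Ebi3 (chromosome 17, 55952640 to 55957022) had 93 and 80 counts in controls and 278 and 333 in tumor libraries. It rose 3.29-fold, from 5.02 ± 0.0760 to 16.5 ± 0.649 CPM (SD, n = 2 each), a log2 difference of 1.72 (SE 0.143, edgeR adjusted p = 3.53e-11). It overlaps the antisense gene Gm16712 over 2252 bases. Gm16712 had 8 and 10 counts in controls and 69 and 126 in tumor libraries, and since the strand setting of the counting is not stated, reads of both genes cannot be told apart there. Il27 (chromosome 7, 126589010 to 126594941), which encodes the partner of EBI3 in IL-27, had 43 and 51 counts in controls and 60 and 64 in tumor libraries. Its log2 difference, 0.30 (SE 0.247), missed the threshold at an edgeR adjusted p of 0.331. It was 0.05 without control replicate 1 and 0.53 without control replicate 2. Il27 overlaps Apobr on the other strand by a short stretch, and Apobr had between 2464 and 4279 counts. Ebi3 made up 68.4% and 61.1% of the counts of Ebi3 and Il27 in controls and 82.2% and 83.9% in tumor libraries. The exact 95% intervals, 59.9 to 76.1 and 52.2 to 69.5 against 77.7 to 86.2 and 79.9 to 87.4, did not overlap between groups.

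Dendritic cells also make IL-12 family cytokines. Of 8 dendritic cell markers 4 were called higher, 1 was lower and 3 were not called, and none was at the floor in controls. They summed to 15.8 and 14.9 CPM in controls and to 51.2 and 48.2 CPM in tumor libraries. Cd209a, a lectin gene of dendritic cells, rose from 0.832 ± 0.347 to 13.5 ± 0.123 CPM (SD, n = 2 each), and Flt3, a receptor gene of the dendritic cell lineage, rose by 3.33 on the log2 scale. Ccr7, the receptor by which dendritic cells migrate to lymph nodes, rose from 2.70 ± 0.778 to 13.3 ± 0.180 CPM, and Fscn1, an actin-bundling gene of mature dendritic cells, from 2.17 ± 0.474 to 11.8 ± 0.969 CPM (SD, n = 2 each). In contrast Clec9a, a marker of cross-presenting dendritic cells fell by 1.16 on the log2 scale, and Zbtb46, Xcr1 and Siglech did not pass the threshold, at 0.24, 0.48 and -0.21. These 4 and Flt3 were named after their values were seen. Among 8 monocyte and interstitial macrophage markers 3 were higher and 4 lower. Their part in the rises of Il12a, Il12b and Ebi3 was not tested.

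**Figure D3:**
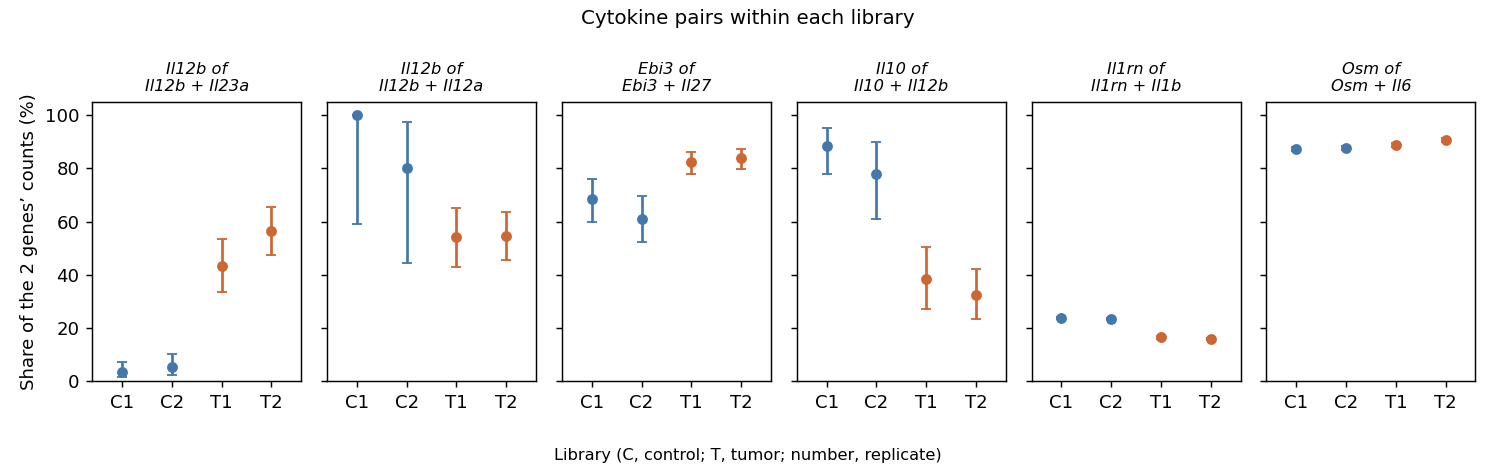
Share of counts (%) that the first-named gene holds of each pair of cytokine genes in each library (C, control, blue; T, tumor, orange), with exact 95% intervals that cover counting error only. Il12b was under 10% of Il12b and Il23a in both control libraries and between 43.3% and 56.6% in the tumor libraries, and Il10 was the larger of Il10 and Il12b only in controls.

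Il10 (chromosome 1, 131019845 to 131024974) was scarce in every library, with 54 and 28 counts in controls and 28 and 33 in tumor libraries. Its level was 2.33 ± 0.783 and 1.65 ± 0.0459 CPM (SD, n = 2 each). The log2 difference, -0.51 (SE 0.310), missed the threshold at an edgeR adjusted p of 0.171, and most of the spread lay between the 2 control libraries. Without control replicate 1 the value was -0.11 and without control replicate 2 it was -0.82. A change of Il10 was thus not detected. Because Tnf fell and Il12b rose, Il10 stood differently against each. Il10 made up 0.143% and 0.0865% of the counts of Il10 and Tnf in controls and 0.373% and 0.391% in tumor libraries, while its share of Il10 and Il12b went from 88.5% and 77.8% to 38.4% and 32.4%.

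Il1rn (chromosome 2, 24336853 to 24351494), the gene of the IL-1 receptor antagonist, had 11986 and 10060 counts in controls and 3820 and 4067 in tumor libraries. It fell 2.98-fold, from 638.4 ± 1.43 to 213.9 ± 9.42 CPM (SD, n = 2 each), a log2 difference of -1.58 (SE 0.0291, edgeR adjusted p = 3.71e-26). Il1b, which encodes the agonist IL-1β, fell less, by 0.90 on the log2 scale. Hence Il1rn made up a smaller share of the counts of Il1rn and Il1b in both tumor libraries, 16.5% and 15.9%, than in both control libraries, 23.8% and 23.4%. Neutrophils also express Il1rn, and all 10 neutrophil markers were higher in the tumor libraries. Their part in the level of Il1rn was not tested.

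Of 3 start-site windows of Il1rn, 1 held the GCGTG core of the motif bound by the aryl hydrocarbon receptor (AHR), the transcription factor that the study followed. GCGTG or its complement was found in 32.4% of all windows. The other 2 windows, which overlap, shared 1 match to the NF-kB motif. Among the other matched members Il12a held the GCGTG core in 1 of its windows, and Tnf, Il6, Il12b and Ebi3 had no match to that core. The stretch of Il1rn before the first start site (chr2:24336610-24336859, GRCm38.p6, plus strand, from RefSeq) is shown because the AHR core, read on the other strand as CACGC, shares 2 bases with an AP-1 match there (both in capitals).
Il1rn upstream: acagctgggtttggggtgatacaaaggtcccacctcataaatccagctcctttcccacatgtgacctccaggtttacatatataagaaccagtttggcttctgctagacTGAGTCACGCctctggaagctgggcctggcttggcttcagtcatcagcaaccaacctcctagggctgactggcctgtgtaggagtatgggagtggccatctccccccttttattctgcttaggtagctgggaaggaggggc
These matches describe the letters only.

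Levels of different genes can be compared per length. In the control libraries the order by mean FPKM was Tnf (1241), Osm (186.3), Il1rn (115.3), Il6 (24.7), Ebi3 (4.35), Il23a (4.30), Il27 (2.71), Il10 (1.78), Il12b (0.224) and Il12a (0.0372). Ebi3 and Il23a could not be told apart there, as their libraries overlapped. In the tumor libraries the order was Tnf (262.6), Osm (157.0), Il1rn (38.7), Il6 (16.7), Ebi3 (14.3), Il27 (3.29), Il12b (1.55), Il12a (1.29 and 1.71 in its 2 libraries), Il23a (1.36) and Il10 (1.26). The last 4 formed a group in which neighbors overlapped. The gap between Tnf and Osm narrowed from 1241 against 186.3 to 262.6 against 157.0 FPKM.

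The receptors of these cytokines were examined next. Of 15 receptor genes 13 were tested, 4 were higher, 4 were lower and 5 were not called, with a median log2 fold change of 0.06. Tnfrsf1b, the gene of TNF receptor 2, fell from 592.2 ± 2.83 to 347.8 ± 1.09 CPM, while Tnfrsf1a, the gene of TNF receptor 1, was at 223.2 ± 2.36 and 220.4 ± 3.90 CPM (SD, n = 2 each) with an edgeR adjusted p of 0.645. Il10ra and Il12rb2 were lower by 0.56 and 0.86 on the log2 scale, the latter from 56.2 to 31.0 CPM. Il6st, which encodes the gp130 chain shared by IL-6, oncostatin M and IL-27, fell by 0.49, a change no longer called under AM scaling, whereas Il6ra rose by 0.32 ± 0.0368 (SE).

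The IL-1 decoy receptor showed the largest difference among the receptors. Il1r2, which binds IL-1 without signaling, had 14 and 24 counts in controls and 4191 and 4745 in tumor libraries, or 1.13 ± 0.547 and 241.9 ± 0.135 CPM (SD, n = 2 each), a log2 difference of 7.77 (SE 0.0939, edgeR adjusted p = 1.99e-30). Neutrophils are rich in this receptor, and the neutrophil markers S100a9, Ngp and Retnlg stood at 1086, 849.6 and 748.4 CPM in the tumor libraries. The signaling receptor gene Il1r1 was at 4.79 ± 0.321 and 5.98 ± 0.123 CPM (SD, n = 2 each), and its log2 fold change of 0.32 did not pass the threshold. Il1rap rose by 0.30 and Lifr by 2.25 ± 0.235 (SE). Il10rb, Il27ra and Il12rb1 did not pass, at 0.06, -0.18 and 1.09. Under AM scaling 8 receptors were called higher and 3 lower, and Tnfrsf1a, Il1r1, Il10rb and Il12rb1 were called higher, at 0.42, 0.76, 0.50 and 1.52. Il23r had 0 counts in all libraries and Osmr at most 7, and neither was tested.

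**Figure D4:**
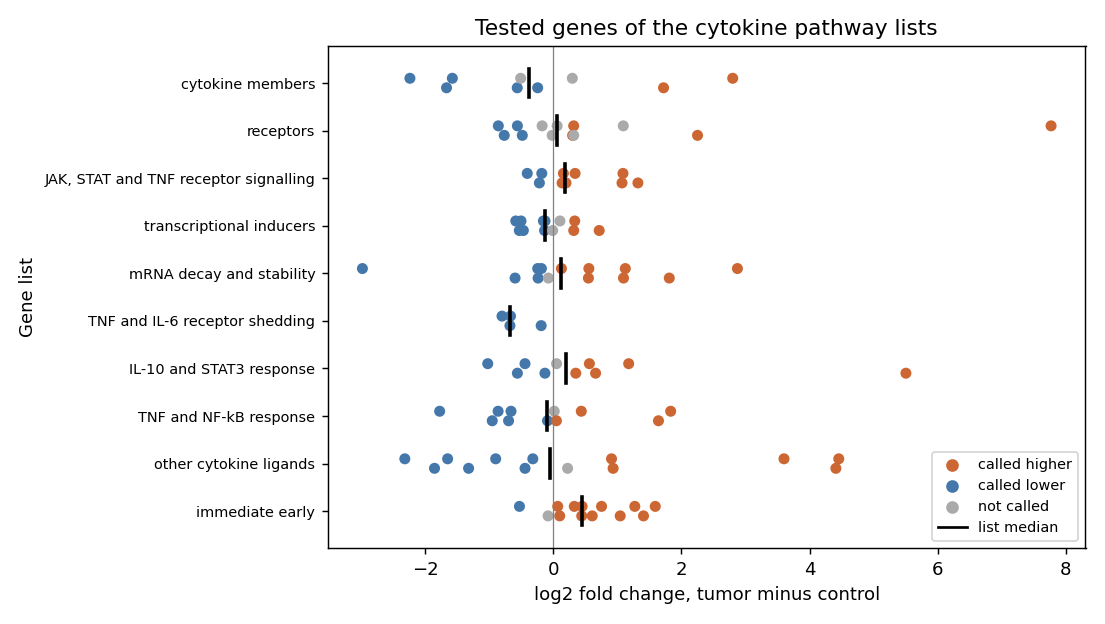
Log2 fold change, tumor minus control under TMM scaling, of each tested gene (point) in the cytokine list, the 8 pathway lists and the immediate early list, colored by call, with the list median as a black bar. Il12a and Il13 are not drawn because their control libraries were at the floor, though they count toward the medians. The shedding list lay entirely below 0 and the immediate early list mostly above it.

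TNF is released from the cell surface by proteolysis. All 4 tested genes of the shedding list were lower, with a median of -0.67, or -0.23 under AM scaling. Adam17, the TNF-converting enzyme, fell from 453.2 ± 9.81 to 284.9 ± 4.34 CPM, and Rhbdf2, which brings ADAM17 to the surface, from 145.3 ± 3.78 to 90.6 ± 5.41 CPM (SD, n = 2 each). Rhbdf1 fell by 0.80 and Adam10 by 0.19 on the log2 scale. Under AM scaling 3 of the 4 were still called lower and Adam10 was called higher.

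Among 12 transcription factors that drive cytokine genes 7 were lower and 3 higher. Nfkb1 and Rel, subunits of NF-kB, fell by 0.53 and 0.51, Irf5, an inducer of IL-12 and IL-23 genes, by 0.59, and Spi1, the macrophage lineage factor, by 0.13. Cebpb, a factor of the Il6 promoter, rose from 591.4 ± 24.7 to 744.3 ± 6.99 CPM (SD, n = 2 each), and Irf4 rose by 0.71. Under AM scaling the list turned to 7 higher and 3 lower, with Spi1 higher by 0.31. The list median was then 0.31, beside 0.46 over all genes tested. Immediate early genes, which also rise when cells are handled, were higher in 11 of 13 cases, with a median of 0.45. Fos, a subunit of AP-1, rose from 433.0 ± 2.81 to 1147 ± 15.8 CPM (SD, n = 2 each), Jun by 1.27, Ier3 by 1.59 and Dusp1 by 1.04 on the log2 scale. Fosb and Junb changed by 0.44 and 0.07. Most of these genes were higher in the same libraries in which Tnf was lower. The part of handling in these changes was not tested.

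Of 13 genes whose products control the decay and stability of cytokine mRNAs, through AU-rich elements or other sites, 7 were higher and 5 lower. Under AM scaling 11 were higher and 2 lower, and Rc3h2, Elavl1 and Khsrp, named after their values were seen, turned from lower to higher. Zfp36, the gene of the AU-rich element binder tristetraprolin, rose from 973.1 ± 6.07 to 1421 ± 19.1 CPM (SD, n = 2 each), a log2 fold change of 0.55 ± 0.0196 (SE). Its relatives Zfp36l1 and Zfp36l2 rose by 1.81 and 1.12. Zc3h12a, which encodes the endonuclease regnase-1 that degrades Il6 and Il12b mRNA, fell by 0.60 and its relative Zc3h12c by 2.98. Arid5a, whose product stabilizes Il6 mRNA, rose from 5.79 ± 0.866 to 42.1 ± 2.60 CPM (SD, n = 2 each). These 6 genes kept their direction under AM scaling.

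Downstream of the cytokines, 10 of 11 JAK, STAT and TNF receptor signaling genes were tested, of which 7 were higher and 3 lower, or 9 and 0 under AM scaling. Jak2 rose by 1.32, Birc3 and Birc2, which encode TNF receptor ubiquitin ligases, by 1.09 and 1.07, Jak1 by 0.34 and Stat3 by 0.16. Of 11 tested genes known to respond to TNF and NF-kB 4 were higher and 6 lower, which turned to 6 and 5 under AM scaling. Icam1, an adhesion molecule, fell from 553.2 ± 3.30 to 161.4 ± 2.72 CPM, whereas Ptgs2, the inducible cyclooxygenase gene, rose from 33.8 ± 0.174 to 120.5 ± 5.23 CPM (SD, n = 2 each). Traf1 rose by 1.64. Tnfaip3 and Nfkbia, feedback inhibitors of NF-kB, rose by 0.44 and 0.05, and the chemokine gene Cxcl2 fell by 0.09, a change that turned to 0.35 under AM scaling. Of 10 genes known to respond to IL-10 and STAT3 5 were higher and 4 lower, or 7 and 2 under AM scaling. Ddit4 rose from 12 and 10 to 453 and 631 counts, Nfil3 by 1.18 and Sbno2 by 0.56 on the log2 scale, while Tnip3 fell by 1.03. The medians of these lists, 0.18, -0.09 and 0.20, lay close to the 0.02 of all genes. Under AM scaling they were 0.62, 0.35 and 0.64, beside 0.46 over all genes tested.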

How the data were processed

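Alveolar macrophage RNA was sequenced in 2 control and 2 tumor libraries, grouped by their titles. According to the methods of the study and the submitters' notes, paired-end reads were aligned with HISAT2 2.0.5 and counted with featureCounts. The table that the authors deposited holds raw, unnormalized integer counts for each gene. Strandedness and annotation release are not given in the sources used here. Gene coordinates were identical to GENCODE M21 (GRCm38) for 98.3% of shared identifiers and for all 10 members.

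Counts were tested in R 4.3.3 with edgeR 4.0.16 (filterByExpr at a minimum count of 10, TMM, glmQLFit and glmQLFTest, group as the only term, Benjamini-Hochberg adjustment over 14256 genes, threshold 0.05). SEs were the absolute log2 difference over the root of F. FPKM used the deposited gene lengths. Shares carry exact binomial intervals. Replicates differed beyond counting noise (chi-square 1.81 and 2.30 per gene), so all 4 libraries were kept. Named were the members, receptors over 3 counts and, per other list, the 3 largest called changes and 3 highest levels (markers, the 3 highest levels), from which the text selects. Clec9a, Flt3, Zbtb46, Xcr1, Siglech, Rc3h2, Elavl1, Khsrp, Lif, Clcf1 and Csf1 were added after their values were seen. Members and lists were chosen with earlier results of these data known. Alternatives were DESeq2 size factors, total counts or the AM markers for scaling, no filter or 10 counts in every library, DESeq2 1.42.0, limma-voom (limma 3.58.1), a replicate block, a log2 fold change of 1, and leaving out each library.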

Additional observations from a re-analysis of the deposited data

How the results depend on the processing

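Of the 12 alternative fits, Tnf, Il1rn, Il23a and Ebi3 kept their direction and call in all, with log2 fold changes from -2.26 to -1.80, -1.63 to -1.14, -1.85 to -1.23 and 1.67 to 2.16. Il12a and Il12b did so in the 11 that tested them, Il12b from 2.55 to 3.23. Without control replicate 2 the remaining control library had 0 counts of Il12a. Il10 was called in none, from -0.82 to -0.07, and Il27 was called only under scaling on the AM markers. Scaling on the AM markers turned Osm to 0.19 and gave 9395 higher and 867 lower genes, 5 higher and 3 lower members. With at least 10 counts in every library, 1 member was called higher, since Il12a and Il12b were not tested. Requiring a log2 fold change of 1 left 2268 genes (1839 higher, 429 lower), 3 lower members and 24 of the 75 called pathway genes. Leaving out 1 library at a time, in fits where the lone library of a group is assumed to vary like the others, gave 6515 to 7470 called genes (3510 to 3956 higher, 3005 to 3514 lower), 65 to 72 called pathway genes and 8 called members each time. Replicate numbers did not pair the libraries (correlation of deviations 0.00549), and with the replicate block 7446 genes (4021 higher, 3425 lower), 8 members and 75 pathway genes were called, and no member changed its call. At 16167147 to 19205737 counts per library, genes with few counts such as Il10, Il12a and Il27 limit what could be detected.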

Other observations

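Other cytokine ligand genes, a list of 25, of which 14 were tested, showed 6 higher and 7 lower genes in the tumor libraries, with a median log2 fold change of -0.05. Under AM scaling 8 were higher and 5 lower, with a median of 0.39. The most abundant of them fell together with Tnf. Il1a, an alarmin of the IL-1 family, fell from 2722 ± 39.6 to 866.4 ± 9.24 CPM, and Il1b from 2062 ± 27.1 to 1104 ± 16.1 CPM (SD, n = 2 each). Tgfb1 fell by 0.32 on the log2 scale, but was higher by 0.12 under scaling on the AM markers. Lif and Clcf1, relatives of Il6 and Osm chosen after seeing their values, fell by 1.86 and 1.32.

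The ligand genes that were higher included Ltb, which encodes lymphotoxin beta and rose from 2.06 ± 0.405 to 44.4 ± 2.94 CPM, and Il4, which rose from 0.207 ± 0.0660 to 4.60 ± 0.130 CPM (SD, n = 2 each). Controls had 0 counts of Il13 against 33 and 19 in tumor libraries, which made it at least 5.09-fold higher against the floor of 3 counts per library. Il4 and Il13 are made by basophils and mast cells among others, and the 6 markers of those cells summed to 2.29 and 2.03 CPM in controls and to 523.1 and 529.3 CPM in tumor libraries. The gate that the study gives for stained AMs would leave such cells out, and its sequencing methods name no gate. Csf1, the macrophage growth factor gene, also singled out after its values were seen, rose from 16.4 ± 1.08 to 199.8 ± 3.08 CPM (SD, n = 2 each). The part of other cells in these differences was not tested.

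The remaining marker lists are given as counts of called genes. Of hepatocyte markers 9 of 10 were higher and 1 lower (10 higher under AM scaling), of T cell and innate lymphoid markers 2 of 5 were higher (4 under AM scaling), of B cell markers 5 of 6 (6 under AM scaling) and of fibroblast markers 3 of 4. The 1 tested NK cell marker was higher. Of endothelial markers 2 of 5 were higher and 1 lower (0 lower under AM scaling), of alveolar type 2 markers 3 of 5 were lower (under AM scaling 3 higher and 0 lower) and of club cell markers 2 of 4 were lower.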
